A study of Homo sapiens with 66 samples.

Results

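The genes described here are 8 members of the MHC class II pathway: HLA-DRA, HLA-DRB1, HLA-DPA1, HLA-DPB1, HLA-DMA, HLA-DMB, CD74, and CIITA. They were found by their Ensembl identifiers, 8 of the 57820 genes in both deposited gene count tables, and were followed through every gRNA group, day, and RNA compartment. RNA-seq was performed in THP-1, a monocytic leukemia cell line of human origin, to compare loss of hnRNPC, an RNA-binding protein of the nucleus, and loss of ADAR, the enzyme that edits adenosine to inosine in double-stranded RNA, alone and together. In study 1, a Cas9-expressing clone without STING was nucleofected with nontarget gRNA (CTRL) or gRNA against GFP, ADAR, hnRNPC, or ADAR and hnRNPC together. Here and in study 2, each single targeting gRNA was given with a nontarget gRNA, and CTRL cells received nontarget gRNA in both places. Total RNA of study 1 was taken on days 3, 4, and 5, with CTRL cells given IFN-α as a further group on day 4. Each of these 16 groups had 3 replicates (48 libraries). In study 2, a Cas9-expressing WT clone received other gRNAs, and total and cytosolic RNA was sequenced for the CTRL, ADAR-, hnRNPC-, and ADAR+hnRNPC-targeted groups, with nuclear RNA for hnRNPC-targeted cells alone (9 groups of 2 replicates, 18 libraries, day 4). Each study rested on 1 clone, and all cells, controls included, carried Cas9 and had been nucleofected. Cytosolic RNA was the fraction that digitonin released, and nuclear RNA the fraction that it left behind, which the labels describe as enriched for nuclei and mitochondria. The studies differed in clone and gRNAs, so their levels are given separately.

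MHC class II molecules are pairs of an α and a β chain, such as HLA-DRA with HLA-DRB1 and HLA-DPA1 with HLA-DPB1, which carry peptides from endosomes to the surface of monocytes, macrophages, dendritic cells, and B cells for CD4 T cells to read. CD74, the invariant chain, escorts new class II molecules to endosomes and blocks their groove until proteases cut it down, and HLA-DM (HLA-DMA with HLA-DMB) then exchanges its last fragment for peptide. CIITA is a coactivator that binds no DNA itself and sits on the RFX, CREB, and NF-Y proteins bound to the X and Y boxes of class II promoters. IFN-γ induces it.

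The Y box holds the letters ATTGG, or CCAAT on the other strand, which NF-Y reads. They are shown here because CIITA acts through proteins on this box. In the RefSeq promoter table (GRCh38.p14, 250 bases before to 50 after each start, gene strand), 6 of the 8 genes were listed, and 5 of the 6 held at least 1 of these motifs. HLA-DPA1 was listed and held none of them, and HLA-DRA and CIITA had no entry. Either motif was found in 12155 of 35116 promoters (34.6%), so a match by itself says little. Motifs are in capitals in windows of 30 bases, and each name gives the distance from the first base of the motif to the start:
HLA-DRB1, 46 bases before the start: aactcagatgctgATTGGttctccaacacg
HLA-DPB1, 99 bases before the start: aagctcagtgtccATTGGttcttttctcag
HLA-DPB1, 75 bases before the start: tctcagactctgtCCAATcccagggtcaca
HLA-DMA, 79 bases before the start: ctacgcttctctgATTGGtttagacaaaat
HLA-DMA, 49 bases before the start: gacaagggcacctATTGGaaatgatctggc
HLA-DMB, 22 bases before the start: cctgcctacctagCCAATctgtccctgttt
CD74, 53 bases before the start: gggccctgggcagCCAATgggatcgtgctg
Apart from these, HLA-DRB1 held a further CCAAT 195 bases before its start. In GRCh38.p14 the promoter regions are chr6:32589799-32590098 for HLA-DRB1, chr6:33075740-33076039 for HLA-DPB1, chr6:32953048-32953347 for HLA-DMA, chr6:32940979-32941278 for HLA-DMB, and chr5:150412861-150413160 for CD74.

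Gene counts per library ranged from 95107690 to 152829008 (median 119947485) in study 1 and from 49666958 to 73873756 (median 60653526) in study 2, so 3 counts, taken as the floor for a gene, came to 0.0196 to 0.0308 CPM (normalised counts, scaled to the total of each library) in study 1 and 0.0424 to 0.0539 in study 2. HNRNPC itself was at 294 to 417 CPM in the 18 libraries of study 1 with its gRNA and at 725 to 869 in the other 30. ADAR mRNA overlapped between libraries with (344 to 1509 CPM) and without (364 to 1373 CPM) its gRNA in study 1, where ADAR is itself an IFN-stimulated gene (ISG). In total RNA of study 2 it was at 448 to 883 CPM with the gRNA and 858 to 937 without. Of 10 monocyte markers, 8 passed the filter on low counts in study 1 (LYZ had a mean of 254 CPM, CD33 61.0, and CSF1R 39.4), while CD14 (0.869 CPM) and CD68 (0.122 CPM) did not. Defining markers of other cells were at or near 0, with mean CPM of 0.00417 for MS4A1 and 0.101 for CD79A (B cells), 0.0229 for CD3D and 0.00566 for CD3E (T cells), and 0.0331 for CD1C and 0.00691 for CLEC9A (dendritic cells).

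CD74 and HLA-DRB1 stood far above the other 6 genes in every group. CD74 (ENSG00000019582, minus strand of chromosome 5, 149781200 to 149792532 in GRCh37) ranged from 29.9 to 65.7 CPM over the 48 libraries of study 1, with a median of 46.3. HLA-DRB1 (ENSG00000196126, minus strand of chromosome 6, 32545679 to 32557625) ranged from 38.7 to 65.4 CPM, with a median of 53.4. The fewest counts in a library were 4186 for CD74 and 5091 for HLA-DRB1.

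HLA-DMA (ENSG00000204257, minus strand of chromosome 6, 32916390 to 32936871) and CIITA (ENSG00000179583, plus strand of chromosome 16, 10960079 to 11036878) lay near 1 CPM. HLA-DMA ranged from 0.558 to 2.32 CPM (median 1.32), and CIITA from 0.669 to 2.18 CPM (median 1.32). HLA-DPA1 (ENSG00000231389, minus strand of chromosome 6, 33032346 to 33048552) ranged from 0.128 to 0.593 CPM (median 0.299), and the α chain HLA-DRA (ENSG00000204287, plus strand, 32407655 to 32412823) from 0 to 0.965 CPM (median 0.205). HLA-DPB1 (ENSG00000223865, plus strand, 33043767 to 33057473; its ends overlap HLA-DPA1 on the other strand) and HLA-DMB (ENSG00000242574, minus strand, 32902406 to 32908805) were close to the floor. HLA-DPB1 had a median of 0.0503 CPM and HLA-DMB of 0.0207 CPM, and HLA-DMB was at 0 in 13 of 48 libraries and at 3 counts or fewer in 27. Per kilobase of the canonical transcript, CTRL cells on day 4 had 42.5 CPM of HLA-DRB1, 26.1 of CD74, 1.04 of HLA-DMA, 0.159 of HLA-DPA1, 0.0885 of HLA-DRA, 0.0668 of CIITA, 0.0298 of HLA-DPB1, and 0.00561 of HLA-DMB. On this scale the β chain HLA-DRB1 was thus far above the α chain it pairs with. The transcript lengths came from a later annotation than the one used for counting. For CIITA, 6627 of the 16061 bases lay in an interval counted as an intron, so its value per kilobase is uncertain.

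Those low counts are not read here as lack of expression. Only uniquely mapped reads had been counted, and HLA genes are polymorphic and have near copies. Whether the genome index held further copies of the MHC region, to which reads of these genes would also map, was not given in the sources used here. HLA-B, a class I heavy chain that pairs with B2M, had a mean of 0.239 CPM and HLA-C, another, of 0.0816, beside 1158 CPM for B2M and 35.6 for HLA-E. TAP2, a transporter subunit encoded among the class II genes, was at 0.0202 CPM, beside 60.7 for TAP1, its partner. Other class II genes varied in the same way, with a mean of 12.6 CPM for HLA-DRB5, 16.6 for HLA-DQB1, and 0.776 for HLA-DQA1. Reads of HLA-DRB1 and HLA-DRB5 may have been split between these near copies. Part of the exonic bases was shared with other genes in the annotation used here, namely 21.6% for CIITA (DEXI among them), 11.6% for HLA-DMB, 8.53% for HLA-DMA, 1.67% for HLA-DPA1, 1.84% for HLA-DPB1, and none for CD74, HLA-DRB1, and HLA-DRA.

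**Figure D1:**
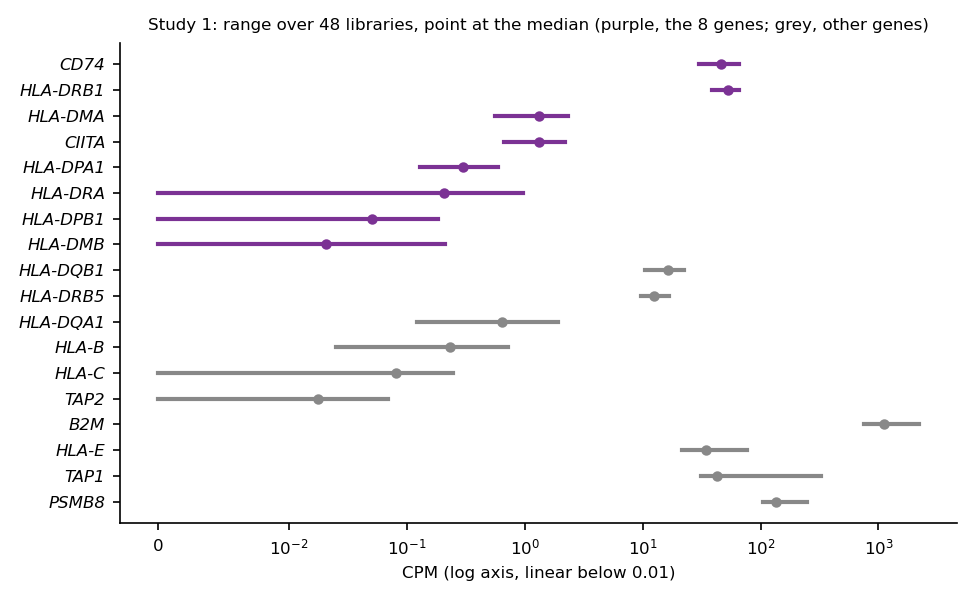
Normalised counts (CPM, log axis that is linear below 0.01) of the 8 genes (purple) and of other MHC genes (grey) in study 1, where each line spans the lowest to the highest of 48 libraries and the point is the median. CD74 and HLA-DRB1 lie near 50 CPM, the other 6 genes at medians of 1.32 CPM or less, and HLA-B, HLA-C, and TAP2 are low as well.

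CD74 was lower than in CTRL cells after hnRNPC targeting at each day of study 1. It was higher after ADAR targeting on the last 2 days, though not past the test against GFP-targeted cells, and the highest values came from ADAR+hnRNPC-targeted cells of day 5. HLA-DRB1 went the other way in those cells on day 5. Neither gene reached the change required for a call (log2 fold change of at least 1 with adjusted P ≤ 0.05 in edgeR's quasi-likelihood test), so 0 of the 2 tested members were called in any comparison with CTRL in study 1. Over all 13193 genes tested, 1.32% were called with IFN-α. For days 3, 4, and 5 in that order, the share was 1.04, 3.22, and 7.72% after hnRNPC, 1.17, 4.71, and 15.6% after ADAR+hnRNPC, 0.00, 0.0682, and 0.273% after ADAR, and 0.0227, 0.00, and 0.212% after GFP targeting. By the adjusted P alone, those shares were 18.3% for IFN-α, 38.0, 51.4, and 64.8% for hnRNPC, 28.7, 57.0, and 73.5% for ADAR+hnRNPC, 0.00, 0.644, and 9.22% for ADAR, and 0.0303, 0.0227, and 7.30% for GFP, so that a small change past the test was common among all genes on day 5.

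Per library, CD74 in CTRL cells was 44.9, 47.3, and 47.99 CPM at day 3, 42.1, 42.5, and 44.8 at day 4, and 42.9, 46.8, and 45.5 at day 5. With hnRNPC gRNA it was 35.6, 35.0, and 38.2 CPM at day 3, 29.9, 35.9, and 34.9 at day 4, and 39.6, 36.8, and 34.2 at day 5. On each day all 3 hnRNPC-targeted libraries were below all 3 CTRL libraries. The log2 fold changes were -0.37 (SE 0.06, adjusted P = 2.28e-05), -0.36 (adjusted P = 1.33e-05), and -0.29 (adjusted P = 1.65e-04), or changes of -22.4, -22.2, and -18.2% (edgeR). With ADAR gRNA it was 52.1, 46.0, and 49.5 CPM at day 3, 52.5, 56.6, and 52.6 at day 4, and 55.0, 52.9, and 55.5 at day 5. The last 2 days lay above CTRL without overlap, by 0.32 (adjusted P = 0.0127) and 0.27 (adjusted P = 0.00747), and the day 4 difference no longer passed the test without CTRL replicate 1 or 2 or ADAR replicate 2. Against GFP-targeted cells as the control, these differences were 0.19 (adjusted P = 0.480) and 0.17 (adjusted P = 0.176). GFP-targeted cells had 44.4 to 53.6 CPM of CD74 and did not pass the test against CTRL on any day.

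With both gRNAs CD74 was 44.4, 46.5, and 46.2 CPM at day 3, 42.9, 43.8, and 44.3 at day 4, and 64.9, 65.7, and 63.9 at day 5. It lay among the CTRL values on days 3 and 4 (log2 fold changes of -0.03 and 0.02, 95% interval on day 4 from -0.11 to 0.15) and above every other library of study 1 on day 5. The day 5 increase was 0.53 (SE 0.06, adjusted P = 3.03e-09), or 43.9%. The interaction of ADAR and hnRNPC targeting, tested in the 12 libraries of a day, was 0.27 at day 3 (adjusted P = 0.437), 0.07 at day 4 (adjusted P = 0.758), and 0.52 at day 5 (SE 0.09, adjusted P = 2.01e-04). The double-targeted cells on day 5 thus exceeded the sum of the single changes, which went in opposite directions. By this adjusted P, 0.00, 4.03, and 48.2% of all genes tested had an interaction on days 3, 4, and 5.

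HLA-DRB1 differed little from CTRL in singly targeted cells, where none of the 6 comparisons passed the test (log2 fold changes from -0.15 to 0.20). With both gRNAs it was 51.8, 50.8, and 55.0 CPM at day 3, 43.6, 45.3, and 48.5 at day 4, and 44.4, 44.04, and 38.7 at day 5. The CTRL libraries had 48.3, 53.2, and 54.5 CPM on day 4 and 56.5, 57.8, and 54.1 on day 5, so the groups overlapped on day 4 through 1 library and were apart on day 5. HLA-DRB1 fell on both days, with a log2 fold change of -0.18 on day 4 (adjusted P = 0.0394, no longer past the test with DESeq2, without the filter on low counts, and without any of 4 single libraries) and of -0.41 on day 5 (SE 0.08, adjusted P = 1.34e-05), or -24.5%. Its interaction was 0.09 at day 3 (adjusted P = 0.826), -0.31 at day 4 (adjusted P = 0.135, but 0.0033 with a replicate block and 0.0266 with DESeq2), and -0.47 at day 5 (SE 0.12, adjusted P = 0.00366). The 2 well-covered members thus moved in opposite directions on day 5, CD74 up and HLA-DRB1 down. The other class II genes past the filter, HLA-DRB5 and HLA-DQB1, had log2 fold changes of -0.35 and -0.24 in the same comparison and were not called.

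**Figure D2:**
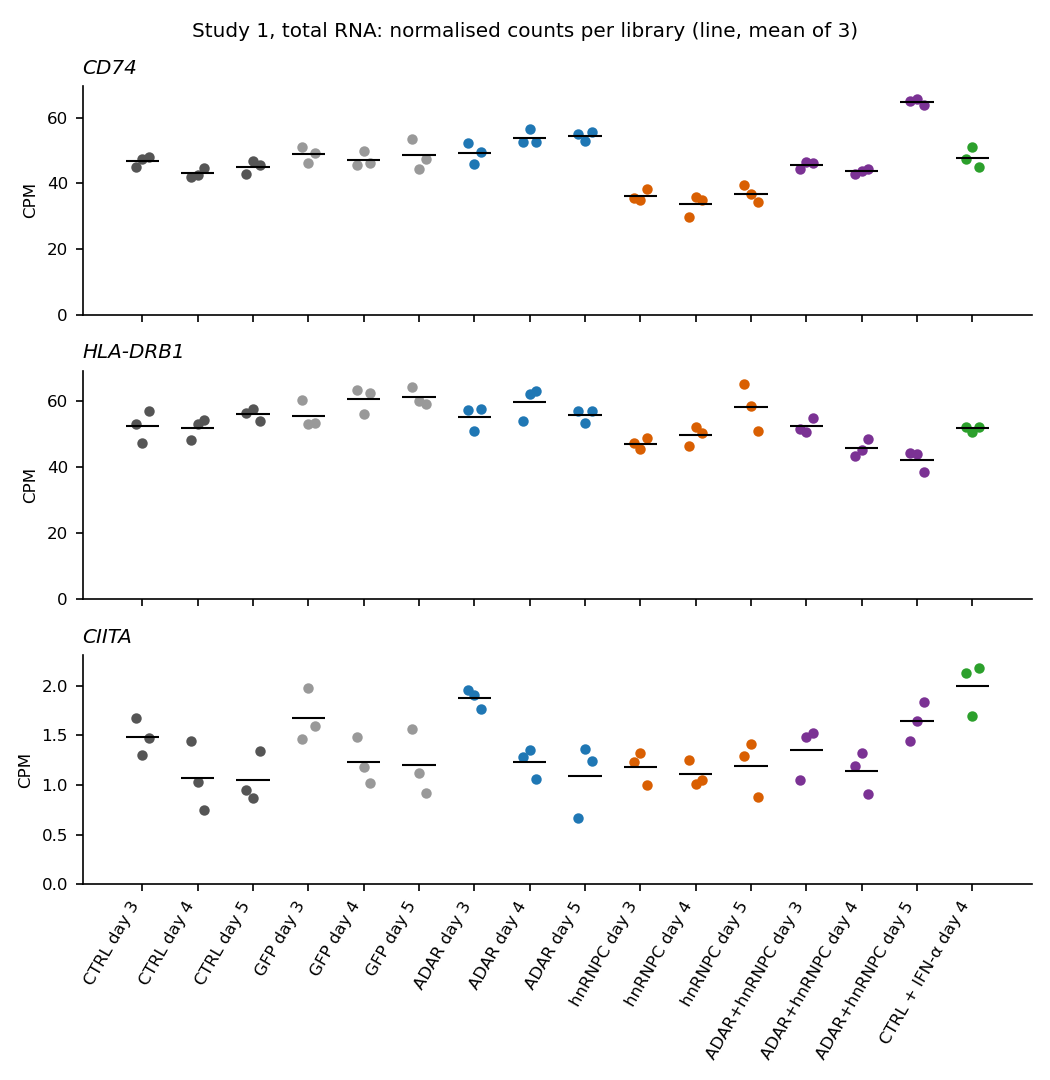
Normalised counts (CPM, linear axes from 0) of CD74, HLA-DRB1, and CIITA in the 48 libraries of study 1, with points for replicates and lines for the mean of 3. CD74 is at 63.9 to 65.7 CPM in ADAR+hnRNPC-targeted cells on day 5 and at 29.9 to 39.6 CPM in hnRNPC-targeted cells, and CIITA is highest with IFN-α.

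**Figure D3:**
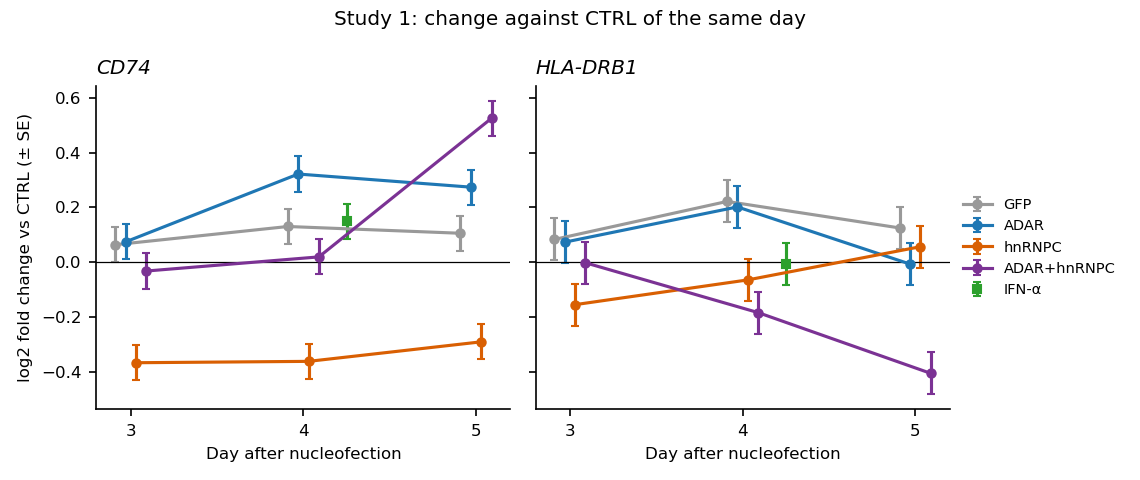
Log2 fold change (± SE, edgeR) against CTRL cells of the same day for CD74 and HLA-DRB1, by day after nucleofection, with IFN-α as a green square on day 4. In ADAR+hnRNPC-targeted cells CD74 goes to 0.53 and HLA-DRB1 to -0.41 on day 5.

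With IFN-α, CD74 and HLA-DRB1 did not pass the test, while CIITA was higher. CD74 was at 47.4, 51.0, and 45.1 CPM with IFN-α (log2 fold change 0.15, 95% interval 0.02 to 0.27, adjusted P = 0.105) and HLA-DRB1 at 52.3, 50.9, and 52.2 CPM (-0.01, 95% interval -0.16 to 0.14, adjusted P = 0.968). CIITA was at 2.14, 1.70, and 2.18 CPM with IFN-α and at 1.44, 1.03, and 0.748 CPM in CTRL cells of day 4, so the groups did not overlap. CIITA lay under the filter on low counts, and its tests are from the fit without it, in which 1.03% of 45744 genes were called with IFN-α. There the log2 fold change was 0.91 (SE 0.25, adjusted P = 0.00727), short of a call. In fits that kept the 8 genes under the filter, it was 0.71 to 1.18 when 1 library at a time was left out, and the adjusted P was 0.0569 without CTRL day 4 replicate 3. In ADAR+hnRNPC-targeted cells CIITA was at 1.19, 1.32, and 0.910 CPM on day 4, among the CTRL values, and lower than with IFN-α (log2 fold change -0.81, adjusted P = 0.00635, with 5.84% of genes called in that comparison). On day 5 it was at 1.44, 1.65, and 1.84 CPM against 0.953, 0.864, and 1.35 in CTRL cells, all 3 above all 3. That difference of 0.64 (SE 0.25, adjusted P = 0.0346) was lost without CTRL day 5 replicate 1 or 2 or ADAR+hnRNPC day 5 replicate 3 (range 0.51 to 0.86).

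The remaining 5 genes gave few differences beyond their spread, again without the filter. HLA-DRA had 0.203 to 0.373 CPM with IFN-α against 0.0405 to 0.147 in CTRL cells (log2 fold change 1.41, SE 0.55, adjusted P = 0.145), and HLA-DPA1 0.343 to 0.593 against 0.221 to 0.334 (0.90, SE 0.44, adjusted P = 0.330). Neither passed the test although the groups did not overlap, and other libraries of the same study spread as widely, since HLA-DRA went from 0.215 to 0.965 CPM among the GFP-targeted libraries of day 3. HLA-DMA, the α chain of the peptide exchanger, was at 0.655 to 1.77 CPM in ADAR+hnRNPC-targeted cells on day 5 against 1.54 to 2.32 in CTRL cells (-0.62, SE 0.24, adjusted P = 0.0398), with overlapping groups. HLA-DMB, its β chain, had 14, 15, and 28 counts in the same cells against 3, 2, and 1 in CTRL cells, a ratio of 10.6 (95% exact counting interval 4.60 to 30.2; edgeR adjusted P = 0.0255). HLA-DPB1 had 4, 1, and 2 counts in hnRNPC-targeted cells on day 4 against 11, 27, and 11 in CTRL cells, a ratio of 0.132 (0.0506 to 0.294; edgeR adjusted P = 0.0287). Those intervals cover counting error alone, and both differences rested on fewer than 60 counts per group. These were the calls of members without the filter, 1 of 8 genes each, when 11.6 and 3.27% of all genes were called in these comparisons.

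The rest of the pathway was counted from lists. Of 13 regulators upstream of CIITA, 11 were tested. On day 5 of ADAR+hnRNPC targeting, when 15.6% of all genes were called, 6 were called higher, among them IRF1 (log2 fold change 3.02) and IRF2 (1.89), and 1 lower, the myeloid factor IRF8 (-1.01). None of the 7 promoter factors (RFX5, RFXAP, RFXANK, NFYA, NFYB, NFYC, and CREB1) was called with IFN-α (1.32% of all genes) or on day 4 of ADAR+hnRNPC targeting (4.71%), and 1, NFYA, was called lower on day 5 (-1.002). Their median log2 fold change on day 5 was -0.10, beside -0.04 over all genes. Of 12 genes for proteases, traffic, and turnover of class II molecules, 0 were called in any of these comparisons (median on day 5 -0.22).

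Genes of costimulation, adhesion, and class I presentation were counted in the same way. Of 6 tested costimulation and adhesion genes, 4 were called higher on day 5 of ADAR+hnRNPC targeting (15.6% of all genes called), led by ICAM1 (5.80), the ligand of LFA-1, CD274 (4.35), which encodes PD-L1, and CD40 (2.26). In hnRNPC-targeted cells on day 5, 3 of the 6 were called higher beside 7.72% of all genes (CD40 1.84, ICAM1 1.72, and TNFSF9 1.51). Of 10 class I partners, 4 were called higher on day 5 of ADAR+hnRNPC targeting, namely ERAP2 (3.00), TAP1 (2.79), NLRC5 (1.92), the class I counterpart of CIITA, and HLA-E (1.01). Over the 15 listed partners, the summed level of hnRNPC-targeted cells on day 5 was 1169 to 1308 CPM, below 1635 to 1752 in CTRL. That of ADAR+hnRNPC-targeted cells on day 4 was 1279 to 1393 CPM against 1450 to 1687. On day 5 of ADAR+hnRNPC targeting the sum was above CTRL, at 2093 to 2558 CPM. With IFN-α it was also above CTRL cells of day 4, at 2844 to 3016 CPM. B2M, with a mean of 1158 CPM over study 1, was the largest part of these sums. With IFN-α, 1 of the 10 tested partners was called (TAP1 1.87) beside 1.32% of all genes. The median of the 10 was 0.65 against 0.02 for all genes.

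Some markers of B cells, which use class II constantly, moved in the same groups. Over the 7 B cell markers, the summed level was 48.6 to 78.3 CPM in ADAR+hnRNPC-targeted cells on day 5 against 9.42 to 10.1 in CTRL cells, and 25.9 to 30.2 CPM with IFN-α against 7.94 to 9.25 on day 4. In hnRNPC-targeted cells on day 5 it was 15.4 to 16.9 CPM. Of the 4 that passed the filter, 2 were called higher with ADAR+hnRNPC on day 5 and with IFN-α (15.6 and 1.32% of all genes), PAX5 (3.72 and 2.83) and BLNK (2.88 and 1.10), while MS4A1, CD79A, and CD22 stayed at or near 0. The summed monocyte markers were at 367 to 404 CPM in ADAR+hnRNPC-targeted cells on day 5 and at 336 to 355 in CTRL cells. The part of these genes in the CD74 and CIITA values was not tested. In bulk RNA, more RNA per cell and more cells with a gene on cannot be told apart.

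Reads on introns were deposited for study 1. The 8 genes had 59 of 197626 intronic intervals, and 2 of the 21876 that passed the filter, neither of which was called with IFN-α or with ADAR+hnRNPC on day 4 or 5, when 0.841, 4.33, and 13.5% of all intervals were. Both lay over annotated exons, the CD74 interval (149781200 to 149781714) with all 515 bases. Without the filter, 4 intervals were called in at least 1 comparison, and they are named after their values were seen. One, in CD74 (149784744 to 149785821), lay wholly over annotated exons and had 0.565 CPM with ADAR+hnRNPC and 0.368 with hnRNPC against 0.143 in CTRL cells on day 5. Another, in CIITA (11016348 to 11017084), went the other way with ADAR+hnRNPC on day 5, at 0.00533 against 0.0777 CPM, from 15 reads or fewer in each library of these groups. The large intron 1 of CD74 (149786888 to 149792187), which holds no annotated exon, had 40, 40, and 76 reads in the CTRL libraries of day 4 and 54, 79, and 34 in those of day 5, against 118 to 165 and 206 to 272 with ADAR+hnRNPC targeting. Its mean was 0.382 ± 0.119 CPM (SD, n = 3) in CTRL cells on day 4 and 0.404 ± 0.165 on day 5, and 1.08 ± 0.216 and 1.99 ± 0.165 in ADAR+hnRNPC-targeted cells. On both days the groups did not overlap. The log2 fold changes were 1.501 (SE 0.30, adjusted P = 8.83e-05) and 2.30 (SE 0.30, adjusted P = 1.66e-11) in edgeR, when 2.62 and 10.0% of 184258 intervals were called, and both calls held in each fit that kept the members under the filter and left out 1 library (1.29 to 1.78 and 2.01 to 2.61). Singly targeted cells on day 5 had 0.760 ± 0.200 CPM (ADAR) and 0.734 ± 0.156 (hnRNPC), which did not pass the test in this fit. For hnRNPC the log2 fold change was 0.86 (adjusted P = 0.0521). Scaled to intron totals it was 0.82 and passed (edgeR, adjusted P = 0.0299). Cells with IFN-α had 0.577 to 0.843 CPM against 0.270 to 0.508 in CTRL cells of day 4 (0.97, adjusted P = 0.143). The exon counts of CD74 changed by 0.02 and 0.53 with ADAR+hnRNPC on days 4 and 5. Whether intron and exon changes differed was not tested.

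The intron 1 of CIITA (chromosome 16, 10971240 to 10989138) had 120, 59, and 107 reads with IFN-α against 49, 28, and 38 in CTRL cells. Of its bases, 74 lay in other annotated exons of CIITA and 438 in exons of another gene, and their part in these reads was not tested. In CPM the intron 1 reads were 1.13, 0.579, and 0.870 with IFN-α against 0.451, 0.189, and 0.254, without overlap. The log2 fold change was 1.55 (SE 0.36, adjusted P = 0.00403), when 0.729% of intervals were called. The adjusted P was 0.0641 without CTRL day 4 replicate 2 in a fit that kept the members under the filter. On day 3, without IFN-α, intron 1 had 0.363 to 0.601 CPM in CTRL, 0.501 to 0.684 in ADAR-, and 0.501 to 0.765 in GFP-targeted cells. It had 0.433 to 0.477 CPM in hnRNPC- and 0.182 to 0.600 in ADAR+hnRNPC-targeted cells of that day. ADAR+hnRNPC-targeted cells on day 4 had 0.211 ± 0.0291 CPM (SD, n = 3) and were lower than cells with IFN-α by a log2 fold change of -2.02 (adjusted P = 9.40e-06, with 3.72% of intervals called). Of those 3 libraries, 1 was below every CTRL library and the others among them. On day 5 of ADAR+hnRNPC targeting, where the exon counts of CIITA were above all CTRL libraries, intron 1 had a mean of 0.282 CPM against 0.294 in CTRL cells. For A-to-I editing, none of the 462418 sites of study 1, the 310592 sites of study 2, or the 2794 editing cluster regions fell inside any of the 8 genes.

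In study 2 the same 2 of 8 genes passed the filter. In total RNA the CD74 libraries had 60.9 and 48.1 CPM in CTRL cells, 64.6 and 64.3 in ADAR-targeted, 42.8 and 41.8 in hnRNPC-targeted, and 49.1 and 43.1 in ADAR+hnRNPC-targeted cells. None of these differed from CTRL past the test, the hnRNPC difference being -0.36 (SE 0.16, adjusted P = 0.175). HLA-DRB1 was at 57.0 and 36.1 CPM in CTRL cells and at 30.6 and 24.7 in ADAR+hnRNPC-targeted cells, a log2 fold change of -0.75 (SE 0.16, adjusted P = 0.00252) that was not called. Its value was -0.38 without CTRL total replicate 1 and -0.99 without CTRL total replicate 2. Called genes were 2.93, 0.733, and 4.29% of 13650 for ADAR, hnRNPC, and ADAR+hnRNPC in total RNA. CTRL total replicate 2 stood apart from replicate 1, with MALAT1 at 2723 against 1148 CPM.

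In cytosolic RNA, CD74 was clearly higher in both groups with the ADAR gRNA. Its libraries had 14.5 and 10.7 CPM in CTRL cells and 10.7 and 10.2 in hnRNPC-targeted cells, against 49.2 and 40.3 in ADAR-targeted and 52.3 and 42.7 in ADAR+hnRNPC-targeted cells. CD74 was called higher with ADAR (log2 fold change 1.83, SE 0.16, adjusted P = 9.96e-07, 3.55-fold) and with ADAR+hnRNPC (1.92, SE 0.17, adjusted P = 2.75e-07, 3.77-fold), and both calls held in each fit without 1 library. HLA-DRB1 was at 10.4 and 10.1 CPM in CTRL cells, 7.42 and 7.94 in hnRNPC-targeted, 19.9 and 19.01 in ADAR-targeted, and 17.7 and 16.9 in ADAR+hnRNPC-targeted cells. It rose by 0.92 (adjusted P = 7.34e-04) and 0.75 (adjusted P = 0.00207), below the fold for a call. So 1 of 2 tested members was called in each of these comparisons, beside 4.95 and 7.90% of all genes, and 0 of 2 with hnRNPC, beside 0.484%. HLA-DRB5 (1.56 and 1.19) and HLA-DQB1 (0.87 and 1.21), class II genes outside the 8, were also higher in cytosolic RNA with ADAR and with ADAR+hnRNPC.

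Read against total RNA, CD74 and HLA-DRB1 were depleted from the cytosolic fraction, and less so with the ADAR gRNA. Over the 4 gRNA groups, cytosolic RNA had less CD74 (log2 fold change -1.15, SE 0.08, adjusted P = 1.65e-09) and less HLA-DRB1 (-1.64, SE 0.08, adjusted P = 2.77e-11) than total RNA, and 8.29% of all genes were called in this direction. In hnRNPC-targeted cells, where nuclear RNA had 64.6 and 54.0 CPM of CD74 and 58.6 and 50.1 of HLA-DRB1, cytosolic RNA was lower by log2 fold changes of -2.51 and -2.82 (adjusted P = 2.32e-09 and 9.37e-10), with 15.0% of all genes called lower. CPM are relative to the total of each fraction, so a depletion is relative to other messages and not an amount per cell. Cytosolic RNA was what digitonin released, and where in the cell the remaining RNA lay was not tested. Of the low genes, without the filter, HLA-DRA (-1.39), HLA-DPA1 (-1.62), CIITA (-0.78), and HLA-DMA (-0.67) were lower in cytosolic than in total RNA as well, each with an adjusted P of 0.00162 or less, and HLA-DRA and HLA-DPA1 were called, beside 10.6% of 42285 genes in this direction. HLA-DPB1 (-1.57, adjusted P = 0.110) and HLA-DMB (-0.12) did not pass the test.

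By gRNA group, the cytosolic against total change of CD74 was -2.11 in CTRL, -2.02 in hnRNPC-targeted, -0.53 in ADAR-targeted, and 0.04 in ADAR+hnRNPC-targeted cells. That of HLA-DRB1 was -2.18, -2.53, -1.19, and -0.68 in the same order. Both genes were called lower in CTRL and in hnRNPC-targeted cells (10.4 and 11.0% of all genes), HLA-DRB1 alone in ADAR-targeted cells (6.51%), and neither in ADAR+hnRNPC-targeted cells (5.99%). For CD74 the change with ADAR exceeded that in CTRL cells by 1.59 (SE 0.23, adjusted P = 0.00183), and with ADAR+hnRNPC it exceeded CTRL by 2.16 (SE 0.23, adjusted P = 3.75e-05) and hnRNPC by 2.06 (SE 0.23, adjusted P = 4.38e-05). For HLA-DRB1 those differences were 0.99 (SE 0.23, adjusted P = 0.0377), 1.504 (SE 0.23, adjusted P = 9.11e-04), and 1.85 (SE 0.23, adjusted P = 1.24e-04). With hnRNPC alone the difference from CTRL was 0.09 for CD74 (95% interval -0.35 to 0.54) and -0.34 for HLA-DRB1 (-0.80 to 0.11). Both genes were called in the ADAR+hnRNPC differences, beside 2.59% of all genes against CTRL and 6.49% against hnRNPC, and CD74 alone in the ADAR difference, beside 0.967%. The HLA-DRB1 difference with ADAR was weak, as its adjusted P passed 0.05 with limma-voom (0.0696) and without any of 7 single libraries, and its value was 0.63 without CTRL total replicate 1.

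Genes of the other antigen presentation lists were among the 353 genes called in the ADAR+hnRNPC difference from CTRL cells. Whether this was particular to antigen presentation was not tested. Of 12 processing and traffic genes, 6 were called higher beside 2.59% of all genes, among them CTSL (2.01), LAMP1 (1.78), and CTSH (1.38), with a median of 0.98 against 0.08 for all genes. Of 10 class I partners, 4 were called higher (TAPBP 2.57, HLA-E 2.19, B2M 1.69, and TAP1 1.60), with a median of 0.74. The 7 promoter factors, which are nuclear proteins, gave 0 calls and a median of 0.00. In the hnRNPC difference, no gene of any list was called, nor any of the 13650 genes (0.00%), of which 417 had an unadjusted P under 0.05. The mitochondrial share of counts was 0.00591 to 0.0101% in cytosolic and 0.307 to 0.745% in total libraries. MALAT1, a nuclear RNA, was lower in the cytosolic libraries with the ADAR gRNA, at 516 and 539 CPM with ADAR and 377 and 423 with ADAR+hnRNPC against 731 and 875 in CTRL and 940 and 696 in hnRNPC-targeted cells, without overlap. In total RNA it was at 1817 and 2219 CPM with ADAR+hnRNPC but at 917 and 824 with ADAR. CTRL cells had 1148 and 2723 CPM of MALAT1 in total RNA, and hnRNPC-targeted cells 1416 and 867. The part of these fraction signs in the CD74 and HLA-DRB1 values was not tested.

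**Figure D4:**
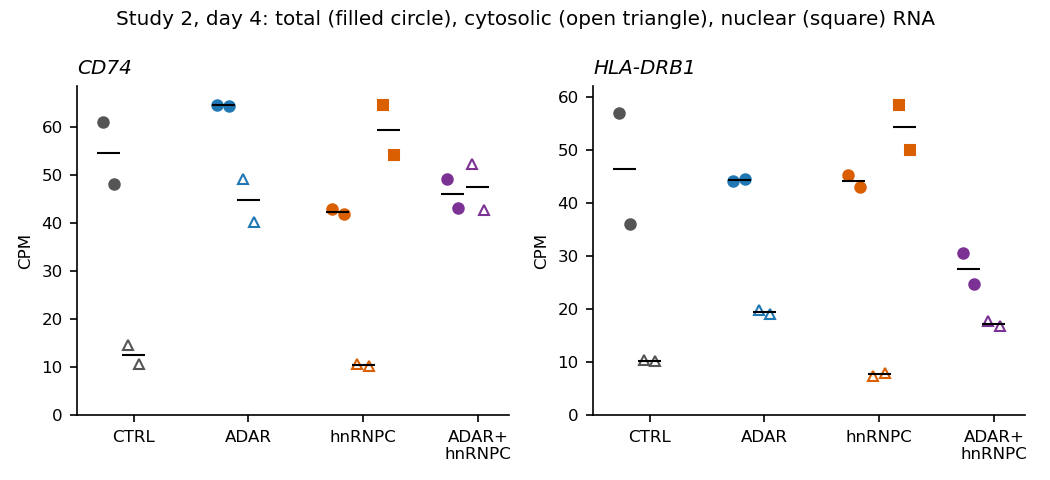
Normalised counts (CPM, linear axes from 0) of CD74 and HLA-DRB1 in the 18 libraries of study 2, as filled circles for total, open triangles for cytosolic, and squares for nuclear RNA, with lines for the mean of 2. Cytosolic CD74 is at 10.2 to 14.5 CPM in CTRL and hnRNPC-targeted cells and at 40.3 to 52.3 CPM in both groups with the ADAR gRNA.

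As a description over the 16 group means of study 1, the genes whose pattern was most like that of CIITA were TIFAB (Pearson r = 0.874), CEP164 (0.860), and TNS3 (0.855). Those most like CD74 were SHMT2 (0.966), SARS1 (0.965), and STARD7-AS1 (0.958), and those most like HLA-DRA were CLU (0.733), BTK (0.681), and IL1RAP (0.675). The 16 groups share days and controls, and no test was made of these likenesses.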

How the data were processed

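Library labels gave the groups. All values used are counts: according to the paper's methods, the authors aligned reads of ribosomal RNA-depleted libraries to GRCh37 with STAR 2.5.4a, counted uniquely mapped reads on GENCODE exons with featureCounts, and deposited raw counts for genes, introns (study 1), editing sites, and cluster regions. The strand setting of the counting was not given in the sources used here, so overlapping genes on opposite strands are uncertain. CPM were computed on TMM-scaled totals. Tests were edgeR 4.0.16 quasi-likelihood fits in R 4.3.3 (the paper used limma and voom), with 1 coefficient per group over all libraries of a study, a minimum mean log2 CPM, 0.5 for genes (13193 and 13650 of 57820 kept) and 1 for introns, and Benjamini-Hochberg adjustment over all features tested. A call needed a log2 fold change of 1 or more in size with adjusted P ≤ 0.05, the interaction an adjusted P ≤ 0.05 alone. Replicates were separate experiments, and P values measure the spread between these samples. No library copied another of its group (chi-square per gene at least 12.1). The fits were tested on simulated data. Alternatives were limma 3.58.1 with voom, DESeq2 1.42.0, RLE size factors, no low-count filter, GFP cells as control, a replicate block, other intron totals, and leaving out each library. The fits by gRNA group in study 2 and the fits that left out libraries while keeping CIITA and named introns under the filter were added after seeing the data. The members and lists were chosen with earlier results of these data known. Named genes were the 8 members, list genes with the largest called changes (in the differences between gRNA groups as well), and the 3 genes most like a member in pattern. Gene positions came from a later annotation lifted to GRCh37, and promoter sequences from RefSeq. Some results are not reported here.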

Additional observations from a re-analysis of the deposited data

Results flagged for a closer look

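These results are given because 2 groups differed under the same contrast by a test of the difference itself (edgeR). The cytosolic against total change of CD74 was greater in ADAR-targeted than in CTRL cells by 1.59 on the log2 scale (adjusted P = 0.00183), in ADAR+hnRNPC-targeted than in CTRL cells by 2.16 (adjusted P = 3.75e-05), and in ADAR+hnRNPC- than in hnRNPC-targeted cells by 2.06 (adjusted P = 4.38e-05). For HLA-DRB1 the same 3 differences were 0.99 (adjusted P = 0.0377), 1.504 (adjusted P = 9.11e-04), and 1.85 (adjusted P = 1.24e-04). On day 5 of study 1, the response to hnRNPC targeting differed with and without the ADAR gRNA, by 0.52 for CD74 (adjusted P = 2.01e-04) and by -0.47 for HLA-DRB1 (adjusted P = 0.00366). All groups had 2 or 3 libraries, so no search for a library far from the others of its group was made.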

How the results depend on the processing

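With no low-count filter, 6 more members were tested. In study 1, 1 of 8 was then called for hnRNPC on day 4, beside 3.27% of all genes (0 with the filter). For ADAR+hnRNPC on day 5 it was also 1, beside 11.6% (0 with the filter). In cytosolic against total RNA, 4 were called over the mean of the groups (2 with the filter), beside 10.6% of all genes called lower. More members were also called in CTRL, hnRNPC-, and ADAR+hnRNPC-targeted cells and against nuclear RNA, where no share of all genes is given. Called introns of members without the filter were 1 with IFN-α and 1 and 3 for ADAR+hnRNPC on days 4 and 5. Of all intervals, 0.729, 2.62, and 10.0% were called there. Between ADAR+hnRNPC and IFN-α it was 1, beside 3.72%. An interval was also called for hnRNPC on day 5 and, with intron totals, 1 each for ADAR+hnRNPC on days 4 and 5. No share of all intervals is given for these. In the ADAR difference of study 2, 2 members were called with RLE size factors or DESeq2 in place of 1 (range 1 to 2 without 1 library, 2 without CTRL total replicate 2). Same-numbered replicates correlated above 0.1 throughout in 8 of 15 comparisons of study 1 and 9 of 11 of study 2. The replicate block called 1 member in the day 4 interaction (HLA-DRB1, -0.31, adjusted P = 0.0033; 0 without the block), as did DESeq2 and the fit of all 48 libraries (range 0 to 1 without 1 library, 1 without ADAR day 4 replicate 1), and it changed no other call.

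Reversals concerned values that had not passed the test, the largest being 0.20 for HLA-DRB1 with ADAR on day 4. HLA-DRB1 with IFN-α was 0.0024 with RLE size factors and, in day 3 ADAR+hnRNPC targeting, 0.0011 with limma-voom and 0.023 with DESeq2. With GFP cells as control, HLA-DRB1 was -0.0099 and -0.020 for ADAR on days 3 and 4 and -0.069 for hnRNPC on day 5, and CD74 was -0.11 for ADAR+hnRNPC on day 4. The CD74 interaction on day 4 was -0.63 on the linear CPM scale, and cytosolic against total CD74 in ADAR+hnRNPC-targeted cells was -0.13 with DESeq2. Without 1 library, HLA-DRB1 ranged from -0.057 to 0.029 with IFN-α, -0.072 to 0.062 for ADAR+hnRNPC on day 3, -0.033 to 0.024 for ADAR and -0.033 to 0.15 for hnRNPC on day 5, and, in total RNA of study 2, -0.32 to 0.30 for ADAR and -0.35 to 0.29 for hnRNPC, the ends being without CTRL total replicate 2 and 1. CD74 ranged from -0.11 to 0.18 in ADAR+hnRNPC cytosolic against total RNA, -0.11 to 0.34 in the hnRNPC difference, and -0.013 to 0.13 in the day 4 interaction. Causes of these shifts were not tested. Counts of 3 or fewer limit HLA-DMB and HLA-DPB1. Editing gave 0 sites in the members under every alternative tried.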
